A study of Arabidopsis thaliana with 12 samples.

Results

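Expansins and xyloglucan endotransglucosylase/hydrolases (XTHs) are secreted proteins that act on the plant cell wall, and 10 of their genes were followed here. They were taken by name, as the 6 alpha-expansins EXPA1, EXPA4, EXPA5, EXPA8, EXPA10 and EXPA11 and the 4 XTHs XTH4, XTH9, XTH22 (also called TCH4) and XTH24, out of 27655 genes in the tables. All 10 had a value in both assays. The samples were Arabidopsis Col-0 seedlings, 7 days old, grown in shaken liquid medium and mock-treated with DMSO at 0.1% of the medium volume, 3 hours after the light came on. They were harvested 20 or 60 minutes later, and 6 RNA-seq and 6 Ribo-seq libraries were made. Every sample carried the same genotype and the same mock treatment, so the comparison is between the assays. The labels do not say which library belongs to which harvest time, so whether the assays hold the same mix of times is not known. RNA-seq, after removal of rRNA, gives the level of each mRNA, and Ribo-seq sequences the fragments that ribosomes protect from nuclease (footprints).

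In growing plant cells the wall is a network of cellulose microfibrils tied together by xyloglucan and set in pectin. Expansins loosen that network without cutting it, and act best in an acidified wall. XTHs cut a xyloglucan chain and join the cut end to another chain or, in some members of the family, to water. Both families are large, and their genes are known for expression in elongating organs.

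The tables give 1 value per gene and assay for all 6 libraries together, so no spread between replicates can be given and no test was made. The RNA-seq table summed to 51390094 expected counts and that of Ribo-seq to 299584069. Intervals of levels below are 95% intervals for counting error only. For ratios of footprints to RNA, the lower 95% bound of either count was set against the upper bound of the other. Intervals of ratios are thus wider than 95% intervals, and ratios whose intervals overlap may still differ beyond counting error. The real spread between seedling cultures would be wider than counting error by an amount that these data do not show. The description of the Ribo-seq samples names root, while their titles and source name seedlings. Of the markers checked, all 4 of green tissue and all 5 of root had at least 10 counts in both assays, the least abundant of them being the nitrate transporter NRT2.1 with 178 RNA-seq counts and 903 footprints. That bar is low at these totals, and the share of all genes that pass it is not given here. Passing it thus says little about how much of either tissue was present. The levels say more, since the 4 markers of green tissue had from 809204 (LHCB1.1) to 1690573 (RBCS1A) footprints. The 5 root markers had from 903 (NRT2.1) to 2429029 (PYK10). The Ribo-seq libraries thus held many footprints of green-tissue markers and of at least 1 root marker. The share of either tissue was not tested. In whole seedlings, fewer cells that express a gene and less RNA per cell cannot be told apart.

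The members were compared at the codons of a motif that most proteins of each family carry in some form. The first set is the XTH active site, where the enzyme forms its bond with the cut sugar chain. It is shown because it carries the residues that make these proteins enzymes. The 27 capitals mark its codons, with 24 bases on each side, read 5′ to 3′ along the gene in TAIR10.1 (RefSeq).
XTH4: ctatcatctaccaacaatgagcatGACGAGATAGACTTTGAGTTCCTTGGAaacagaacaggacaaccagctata
XTH9: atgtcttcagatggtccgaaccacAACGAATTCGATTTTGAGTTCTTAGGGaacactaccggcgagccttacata
XTH22: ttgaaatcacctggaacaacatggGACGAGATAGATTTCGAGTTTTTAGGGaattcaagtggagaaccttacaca
XTH24: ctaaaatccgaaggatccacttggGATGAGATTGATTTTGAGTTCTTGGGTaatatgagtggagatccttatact

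XTH4, XTH22 and XTH24 spell the residues DEIDFEFLG, and XTH9 spells NEFDFEFLG. The first form was found in 22 of the 33 XTH proteins of the reference, and the second in XTH9 alone. The windows lie at chr2:2764469-2764543 on the plus strand for XTH4, chr4:1416514-1416588 on the plus strand for XTH9, chr5:23307815-23307889 on the minus strand for XTH22 and chr4:14820018-14820092 on the minus strand for XTH24. Over the 75 bases shown, XTH22 and XTH24 were the closest pair and differed at 21, while XTH4 and XTH9 differed at 34. At the 27 active-site bases these pairs differed at 6 and 8. There XTH22 also differed from XTH4 and from XTH9 at 6, and XTH24 from XTH4 at 6.

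The second set shows the histidine, phenylalanine and aspartate codons (9 capitals) that lie in the first domain of alpha-expansins. It is shown for the 6 member expansins to set beside the XTHs how near these genes are to each other in sequence.
EXPA1: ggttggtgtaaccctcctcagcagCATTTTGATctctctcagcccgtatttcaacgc
EXPA4: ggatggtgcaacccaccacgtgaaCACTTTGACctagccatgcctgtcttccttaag
EXPA5: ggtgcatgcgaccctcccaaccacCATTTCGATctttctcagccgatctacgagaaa
EXPA8: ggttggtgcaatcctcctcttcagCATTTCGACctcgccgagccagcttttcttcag
EXPA10: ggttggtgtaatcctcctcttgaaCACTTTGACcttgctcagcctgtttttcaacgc
EXPA11: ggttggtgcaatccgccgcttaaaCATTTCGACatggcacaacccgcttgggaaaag

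The motif stood in 23 of the 25 alpha-expansin proteins of the tables, and EXPA13 and EXPA20 lacked it. Of the 57 bases shown, EXPA1 and EXPA10 differed at 11 and EXPA4 and EXPA5 at 27. The windows lie at chr1:26142474-26142530 (plus strand) for EXPA1, chr2:16544920-16544976 (minus) for EXPA4, chr3:11012303-11012359 (minus) for EXPA5, chr2:16949963-16950019 (minus) for EXPA8, chr1:9260223-9260279 (plus) for EXPA10 and chr1:6999219-6999275 (minus) for EXPA11.

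The 4 member XTH mRNAs carried more footprints per RNA than the 6 member expansin mRNAs. Among these 10 genes no expansin value reached that of any XTH, although the intervals of EXPA8 and XTH22 overlapped. The measure is a log2 ratio, footprint TPM over mRNA TPM, with 0.1 added to each, where TPM is RSEM's transcript level, corrected for coding length and scaled to the same total in each assay. The XTHs ran from 0.53 to 1.20 with a median of 0.76, and the expansins from -0.14 to 0.36 with a median of 0.008. The median of 21422 nuclear genes with RNA-seq TPM over 0.1 was 0.12, and their quartiles were -0.42 and 0.57. All 4 XTHs and 2 of the 6 expansins, EXPA4 and EXPA8, were above that median. Summed over genes, the XTHs had 882 TPM by RNA-seq and 1462 TPM by footprints, while the expansins had 302 and 299 TPM. Of the 10 genes, 7 had a ratio above 0, where 56.1% of nuclear genes did. Only XTH24 reached a log2 ratio of 1, and 0 fell to -1 or below. Among all nuclear genes, 8.46% reached 1 and 10.2% lay at -1 or below, and 1 of 10 is near that background.

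**Figure D1:**
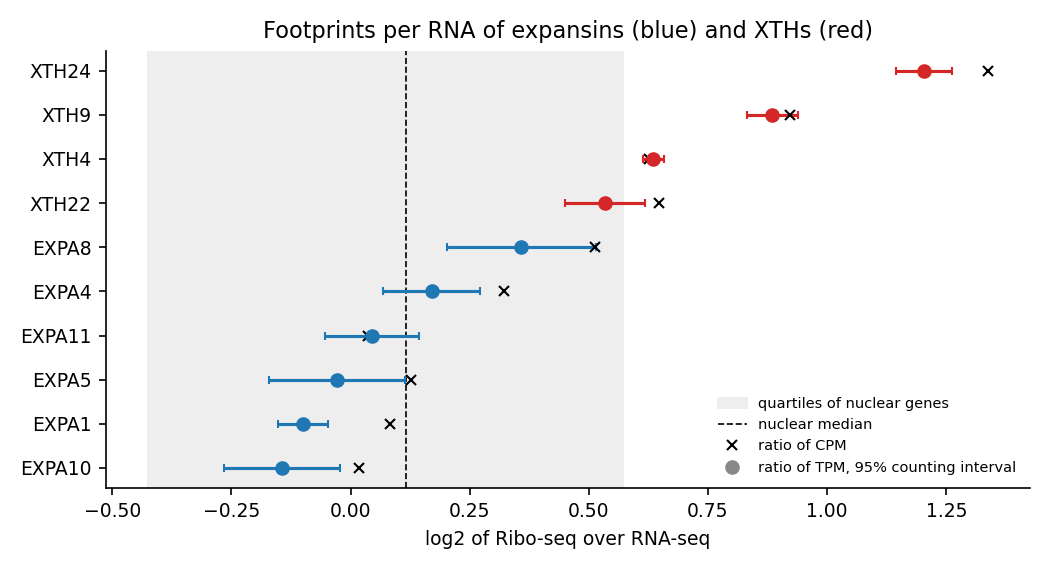
Log2 ratio of Ribo-seq over RNA-seq TPM (x axis) for each gene (y axis), expansins in blue and XTHs in red, with crosses for the ratio of CPM. Bars combine the 95% counting bounds of both assays and are wider than 95% intervals. The dashed line is the nuclear median of 0.12 and the grey band runs from -0.42 to 0.57. The 4 member XTHs lie above every member expansin.

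XTH4 (AT2G06850), an enzyme known from elongating and wood-forming tissue, was the most abundant of the 10 in both assays. It had 29921 RNA-seq counts and 269340 footprints. Its level was 644 TPM by RNA-seq (95% interval 637 to 652) and 1001 TPM by footprints (997 to 1005). Among nuclear genes it ranked 147th by RNA-seq level and 125th by Ribo-seq level. Its log2 ratio was 0.64 (0.61 to 0.66). It occupies 2763449 to 2765743 of chromosome 2 (TAIR10.1), and its 4 exons all hold coding sequence.

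XTH24 (AT4G30270), first described as the meristem gene MERI-5, had the highest ratio of the set. It gave 3677 RNA-seq counts and 54186 footprints. That is 88.7 TPM in RNA-seq (85.9 to 91.6) and 204 TPM in Ribo-seq (203 to 206), a log2 ratio of 1.20 (1.14 to 1.26). It ranked 4th of the 10 by RNA and 2nd by footprints, passing both EXPA1 and XTH9. The gene lies on chromosome 4 from 14819192 to 14820595, in 3 exons.

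XTH9 (AT4G03210), known from shoot apices, had the second highest ratio. It gave 4660 RNA-seq counts and 51539 footprints, or 102 TPM (99.2 to 105) and 189 TPM (187 to 190). The log2 ratio was 0.89 (0.83 to 0.94), below that of XTH24 and above that of XTH4 with no overlap of the intervals. It lies on chromosome 4 from 1415617 to 1417444, in 4 exons.

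XTH22 (AT5G57560), the touch-induced gene TCH4, had the lowest level and ratio of the member XTHs. It gave 2088 RNA-seq counts and 19083 footprints, or 47.0 TPM (44.996 to 49.05) and 68.1 TPM (67.1 to 69.0). Its log2 ratio was 0.53 (0.45 to 0.62), and this interval overlapped those of XTH4 and EXPA8, which does not show that the values are equal. It lies on chromosome 5 from 23307006 to 23308680, in 2 exons.

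EXPA1 (AT1G69530), an expansin that takes part in the opening of stomata, was by far the most abundant member expansin. It gave 5862 RNA-seq counts and 36198 footprints. Its level was 157 TPM in RNA-seq (153 to 162) and 147 TPM in Ribo-seq (145 to 148). It ranked 2nd of the 10 by RNA and 4th by footprints, behind XTH4, XTH24 and XTH9. The log2 ratio was -0.10 (-0.15 to -0.048). It lies on chromosome 1 from 26141726 to 26143538.

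EXPA11 (AT1G20190) and EXPA4 (AT2G39700) had middle levels. EXPA11 gave 1622 RNA-seq counts and 9705 footprints, or 42.6 TPM (40.6 to 44.7) and 44.0 TPM (43.1 to 44.8). EXPA4 gave 1481 RNA-seq counts and 10789 footprints, or 37.9 TPM (36.0 to 39.9) and 42.7 TPM (41.9 to 43.5). Their intervals were apart in RNA-seq and overlapped in Ribo-seq. The log2 ratios were 0.045 (-0.054 to 0.14) for EXPA11 and 0.17 (0.069 to 0.27) for EXPA4, which also overlapped. EXPA11 lies on chromosome 1 from 6998335 to 6999839 and EXPA4 on chromosome 2 from 16543832 to 16545746.

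EXPA10, EXPA5 and EXPA8 were the least abundant. EXPA10 (AT1G26770), which is known to promote leaf growth, gave 1080 RNA-seq counts and 6373 footprints, or 28.1 TPM (26.4 to 29.8) and 25.4 TPM (24.8 to 26.0). Its log2 ratio of -0.14 (-0.26 to -0.022) was the lowest of the 10. EXPA5 (AT3G29030) gave 775 RNA-seq counts and 4933 footprints, or 20.1 TPM (18.7 to 21.5) and 19.7 TPM (19.1 to 20.2), a log2 ratio of -0.028 (-0.17 to 0.12). EXPA8 (AT2G40610) gave 600 RNA-seq counts and 5004 footprints, or 15.7 TPM (14.4 to 17.0) and 20.1 TPM (19.6 to 20.7). Its log2 ratio of 0.36 (0.20 to 0.51) was the highest among the member expansins. EXPA8 was thus below EXPA5 by RNA, while by footprints the intervals of this pair overlapped. EXPA10 lies on chromosome 1 from 9259432 to 9261313, EXPA5 on chromosome 3 from 11011262 to 11013451 and EXPA8 on chromosome 2 from 16948791 to 16950705. Each of the 6 expansin genes has its coding sequence in 3 exons.

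**Figure D2:**
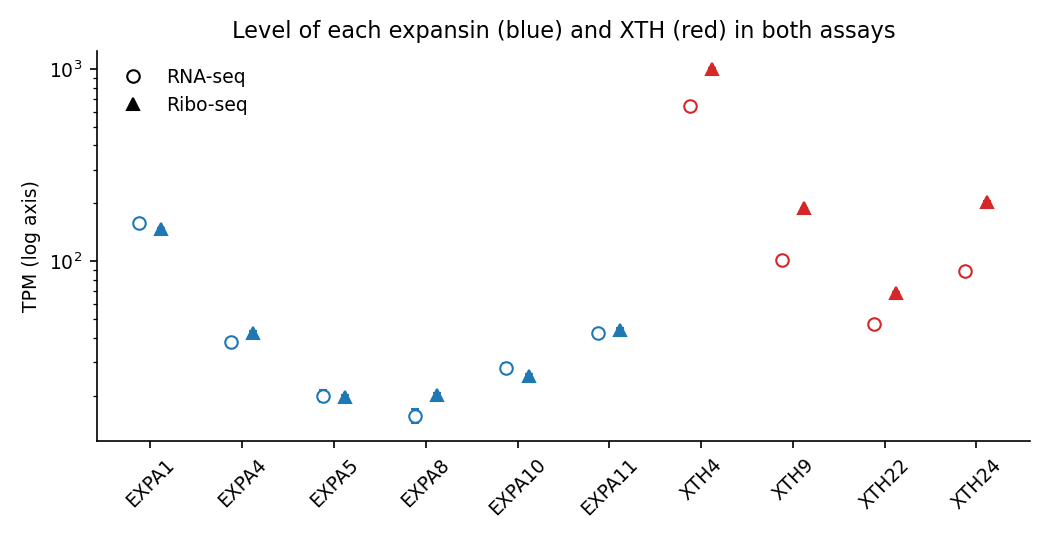
TPM on a log axis (y) for each gene (x), open circles for RNA-seq and triangles for Ribo-seq, with expansins in blue and XTHs in red and 95% counting intervals. XTH4 stands highest at 644 and 1001 TPM, and the triangle lies above the circle in all 4 XTHs.

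By RNA the intervals of neighbours in the order of levels were apart throughout, from XTH4 through EXPA1, XTH9, XTH24, XTH22, EXPA11, EXPA4, EXPA10 and EXPA5 to EXPA8. By ratio, the steps from XTH24 to XTH9 and from XTH9 to XTH4 were the only ones between neighbours whose intervals were apart. From XTH4 down to EXPA10, each gene overlapped the next one. All 10 lay in the upper part of the nuclear genes by level, between percentile 67.4 (EXPA8) and 99.3 (XTH4) of RNA-seq TPM and between 69.8 (EXPA5) and 99.4 (XTH4) of Ribo-seq TPM.

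**Figure D3:**
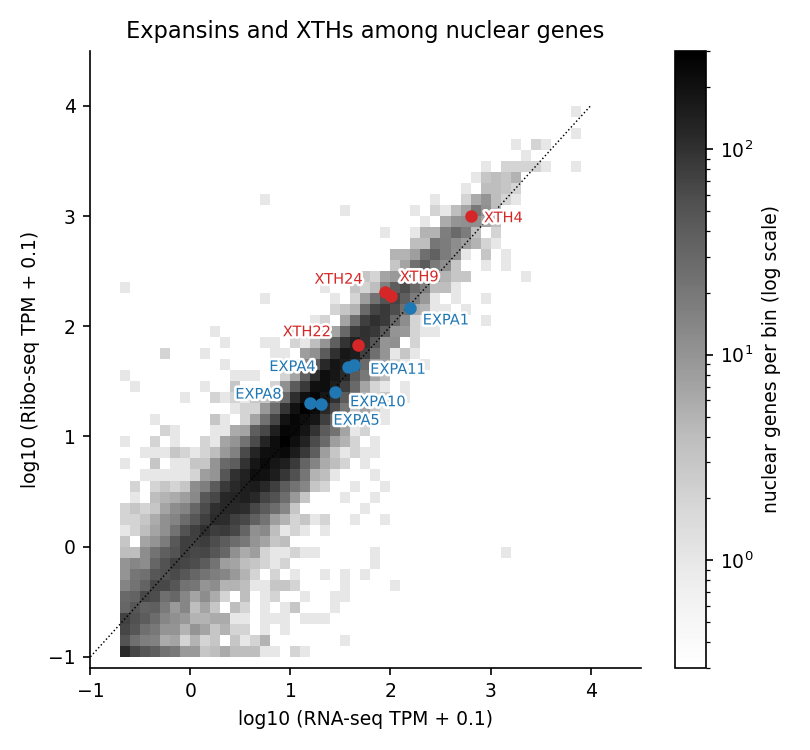
Ribo-seq TPM (y axis) against RNA-seq TPM (x axis), both as log10 with 0.1 added, of 21422 nuclear genes, shaded by the number of genes per bin, with the 10 members marked, expansins in blue and XTHs in red. The dotted line marks a log2 ratio of 0. All 4 XTHs lie above it, and EXPA1 (log2 ratio -0.10), EXPA5 (-0.028) and EXPA10 (-0.14) just below.

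The ratio depends on coding length, so each gene was also placed among nuclear genes whose coding length was within 20% of its own. Member XTHs have coding sequences of 810 to 891 nucleotides and member expansins 753 to 780, so both sets are shorter than the nuclear median of 1119. Genes of like length had median ratios between 0.28 and 0.32. Among them XTH24 stood at percentile 93.8, XTH9 at 85.4, XTH4 at 73.0 and XTH22 at 66.0 (3988 to 4484 genes each). EXPA8 stood at percentile 53.1 and the other 5 expansins between 26.3 (EXPA10) and 41.3 (EXPA4). The XTHs thus stood above the middle and 5 of 6 expansins below it. Genes of like RNA level had medians from 0.13 around EXPA8 to 0.56 around EXPA1. Among nuclear genes with RNA-seq TPM within 2-fold of its own, XTH24 stood at percentile 93.2 (2000 genes) and XTH9 at 79.1 (1713 genes). EXPA8, at 63.1, then stood above XTH4 at 62.7 and XTH22 at 60.1, so the order of the sets did not hold throughout at like RNA level. The other 5 expansins lay between 12.8 (EXPA1, 1151 genes) and 38.2 (EXPA4).

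Counts alone, with no length term, also set the member XTHs above the member expansins. Footprint counts are larger throughout because the Ribo-seq total was larger. The XTHs had 9.00 (XTH4), 9.14 (XTH22), 11.1 (XTH9) and 14.7 (XTH24) footprints per RNA-seq count. The expansins ran from 5.90 in EXPA10 to 8.34 in EXPA8. After scaling to the pooled total of each assay (CPM), the log2 ratio had a median of 0.79 in the XTHs and 0.10 in the expansins, against 0.21 in nuclear genes. The sign of the expansin median depends on the scaling, since it was -0.44 when TPM was taken over nuclear genes only, where the nuclear median was -0.32 and the XTH median 0.31.

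The length term also took in splice forms. RSEM gives a mean coding length per gene and assay, weighted by the forms it found. For XTH4 the RNA-seq mean was 885 nucleotides and the Ribo-seq mean 822, for XTH9 873 and 834, and for EXPA11 759 and 679. The reference models of these genes are 711 and 891, 789 and 873, and 582 and 759 nucleotides. The Ribo-seq means thus lay nearer to the short form than the RNA-seq means did in these 3 genes, and a shorter length raises TPM. In the other members with several models the Ribo-seq mean was slightly longer, at 755 against 747 in EXPA1 and 768 against 765 in EXPA10. With the RNA-seq length used in both assays, the log2 ratio was 0.53 in XTH4, 0.82 in XTH9 and -0.12 in EXPA11. XTH24, XTH22, EXPA4, EXPA5 and EXPA8 have a single reference model and the same length in both tables.

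The other genes of both families gave medians in the same order. Of 33 XTH genes, 28 had at least 10 counts in both assays, and of 25 alpha-expansin genes 19 did. The share of all nuclear genes that did is not given here, so these counts only describe the families. Leaving out the members, 23 of 25 XTHs with a ratio lay above the nuclear median, with a median log2 ratio of 0.66. Of 13 other alpha-expansins with a ratio, 6 lay above it, with a median of 0.01. The ranges overlapped, from -0.09 to 1.48 in these XTHs and from -0.87 to 0.74 in these alpha-expansins. The separation of the member XTHs from the member expansins thus did not hold in the rest of the families. A ratio of 1 or more was seen in 6 of those 25 XTHs and in 0 of those 13 alpha-expansins, against 8.46% of nuclear genes. Summed over the whole family, XTHs had 2300 TPM by RNA-seq and 3845 TPM by footprints, and alpha-expansins 622 and 664 TPM. Genes are not replicates, so these counts describe the pooled libraries.

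**Figure D4:**
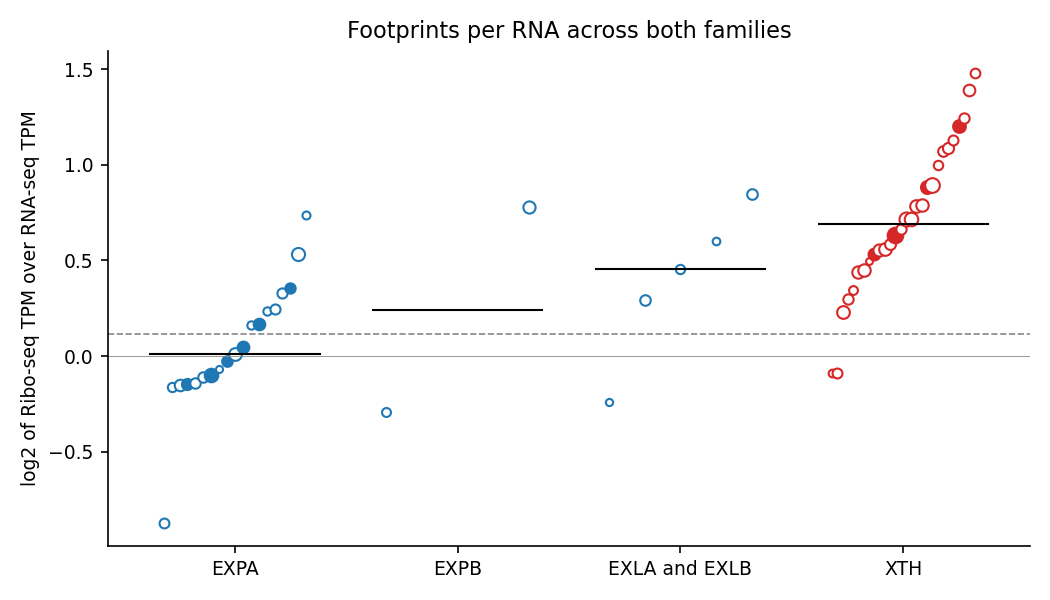
Log2 ratio of Ribo-seq over RNA-seq TPM (y axis) for each gene with at least 10 counts in both assays, by family (x axis), filled for the 10 members and open for other genes, with larger points for higher RNA-seq TPM. Black bars are medians and the dashed line is the nuclear median of 0.12. Most XTH points lie above that line, while alpha-expansins lie on both sides.

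Among the XTHs outside the 10, the most abundant were XTH31, XTH7 and XTH17. XTH31, an enzyme known mainly for hydrolysis of xyloglucan, had 338 TPM by RNA-seq and 627 TPM by footprints, a log2 ratio of 0.89 (0.86 to 0.92). XTH7 had 213 and 350 TPM (0.72, 0.68 to 0.75), and XTH17 had 147 and 242 TPM (0.72, 0.67 to 0.76). XTH4 thus held 28.0% of the XTH total by RNA and 26.0% by footprints, and the 4 member XTHs together held 38.4% and 38.02%. The highest ratio in the family was that of XTH13, at 1.48 (1.31 to 1.65), and the lowest were those of XTH5, at -0.09 (-0.26 to 0.081), and XTH10, at -0.09 (-0.50 to 0.33), all 3 named after their values were seen. XTH5 is the nearest relative of XTH4, 75.8% identical in protein, and had 11.8 TPM by RNA-seq and 11.1 TPM by footprints, where XTH4 had 644 and 1001.

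Among the alpha-expansins outside the 10, EXPA6, EXPA3 and EXPA9 were the most abundant. EXPA6 had 108 TPM by RNA-seq and 156 TPM by footprints, a log2 ratio of 0.53 (0.48 to 0.59). It ranked second in the family by RNA, behind EXPA1, and first by footprints. EXPA3 had 87.0 and 87.6 TPM (0.01, -0.057 to 0.078), and EXPA9 had 36.8 and 33.1 TPM (-0.15, -0.26 to -0.044). EXPA1 held 25.3% of the family total by RNA and 22.1% by footprints, and the 6 member expansins 48.5% and 44.98%. Of the 6 genes without a ratio, EXPA21, EXPA22, EXPA23 and EXPA25 had 0 counts in both assays, which does not show that they were silent. EXPA24 and EXPA26 had 1 and 2 RNA-seq counts. These 6 genes lie between 15726243 and 15740605 on chromosome 5.

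**Figure D5:**
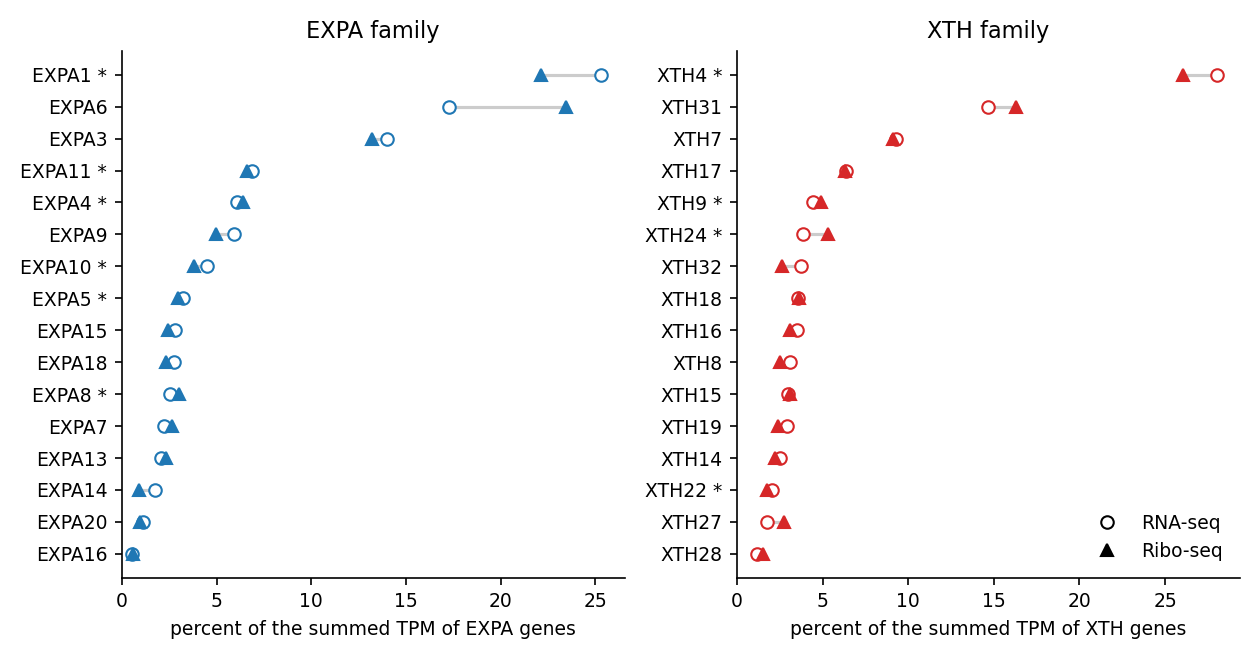
Share of each gene (y axis) in the summed TPM of its family (x axis, percent), for the 16 most abundant genes of each family by RNA-seq, open circles for RNA-seq and triangles for Ribo-seq, with stars for the 10 members. EXPA1 moves from 25.3% to 22.1% and EXPA6 from 17.3% to 23.5%, while XTH4 leads its family in both assays.

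The smaller expansin families were expressed less. Of 6 beta-expansins, EXPB3 and EXPB1 were detected. EXPB3 had 58.3 TPM by RNA-seq and 100 TPM by footprints, a log2 ratio of 0.78 (0.70 to 0.86), and EXPB1 had 5.47 and 4.44 TPM (-0.29, -0.56 to -0.024). Of 6 expansin-like genes, 5 were detected, and of the most abundant EXLA1 had 19.4 and 35.0 TPM, EXLA2 had 18.8 and 23.0 TPM and EXLB1 had 7.38 and 10.2 TPM. Their log2 ratios were 0.85, 0.29 and 0.46, all above the nuclear median. Of all 6 expansin-like genes, 4 lay above it, and the lowest ratio was -2.34, in a gene with 7 RNA-seq counts and 3 footprints.

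XTH22 and XTH24 each lie in a tandem group of XTH genes, and the neighbours differed widely in level. Within 20000 bases of XTH22 on chromosome 5 lie XTH25, 566 bases away, XTH13 and XTH12, all on the same strand. XTH25 was nearly silent, with 6 RNA-seq counts and 61 footprints, against 2088 and 19083 for XTH22. XTH13 had 9.79 TPM by RNA-seq and 27.5 TPM by footprints, and XTH12 had 15.5 and 36.8 TPM, with log2 ratios of 1.48 and 1.25, both above the 0.53 of XTH22. Next to XTH24 on chromosome 4 lie XTH18, at 81.4 and 140 TPM, and XTH19, at 67.7 and 91.9 TPM, with log2 ratios of 0.79 and 0.44 against 1.20. The group of XTH24 was thus high throughout, and that of XTH22 was not. None of the 6 expansins has a family member within 20000 bases.

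The values of close relatives could be mixed up if reads were shared, so the sequence shared with other coding sequences was measured. Member expansins were 60.6% to 85.1% identical in protein, the closest pair being EXPA1 and EXPA10, and member XTHs 49.5% to 76.3%, the closest pair being XTH22 and XTH24. Exact stretches of 28 nucleotides, about a footprint long, were shared with another gene in 1.73% of the positions of EXPA10, 0.964% of EXPA1, and 0.362% or less of the other 8. XTH4, XTH9, XTH24, EXPA8 and EXPA11 shared none. No stretch of 50 nucleotides was shared by any of the 10. Despite 85.1% identity, EXPA1 and EXPA10 differed in level, at 157 and 28.1 TPM in RNA-seq, and had overlapping log2 ratios of -0.10 and -0.14. XTH22 and XTH24 were 76.3% identical and had ratios of 0.53 and 1.20.

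The sets also differed in base composition, which was not used to choose them. GC content of the coding sequence was 49.7% to 50.5% in 5 expansins and 45.7% in EXPA11, against 42.0% to 45.1% in the XTHs and a nuclear median of 44.4%. GC content was thus higher in each member expansin than in any member XTH, and its part in the result was not tested. In the leader before the start codon, ATG triplets, at which an upstream ORF can begin, were counted. In the model nearest to the table's length, EXPA1, EXPA4, EXPA10 and XTH4 had 0, EXPA11, XTH22 and XTH24 had 1, EXPA8 had 2, EXPA5 had 3 and XTH9 had 4. Of 20475 nuclear genes with an annotated leader, 62.6% had at least 1. The 4 members with 0 had log2 ratios of -0.14 (EXPA10), -0.10 (EXPA1), 0.17 (EXPA4) and 0.64 (XTH4). Those with 1 had 0.045 (EXPA11), 0.53 (XTH22) and 1.20 (XTH24). EXPA8, with 2, had 0.36, EXPA5, with 3, had -0.028, and XTH9, with 4, had 0.89. The part of these triplets in the ratio was not tested. Other models of EXPA1, EXPA11, XTH4 and XTH9 differ, with up to 12 in XTH4.

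Genes that make and trim xyloglucan had ratios on both sides of the nuclear median. Of 7 synthesis genes, 4 were above the nuclear median ratio, and the median was 0.19. The glucan synthase CSLC4 had 54.0 TPM by RNA-seq and 55.2 TPM by footprints (log2 ratio 0.03, -0.018 to 0.081). The xylosyltransferases XXT1, XXT2 and XXT5, which add xylose side chains, had log2 ratios of 0.39, 0.48 and 0.25. The galactosyltransferase MUR3 was the only one at -1 or below, with 22.6 and 10.8 TPM (-1.07, -1.16 to -0.97), while XLT2, which adds galactose at the neighbouring position, had -0.16 and the fucosyltransferase FUT1 had 0.19. Of 4 trimming and acetylation genes, 3 were above the nuclear median. The alpha-xylosidase XYL1 had 101 and 164 TPM (0.70, 0.67 to 0.73) and the beta-galactosidase BGAL10 had 17.9 and 26.8 TPM (0.58, 0.50 to 0.66). The acetyltransferase AXY4 had a log2 ratio of 0.29 and the fucosidase AXY8 one of -0.12.

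The touch genes TCH2 and TCH3 had higher ratios than TCH4. TCH2 and TCH3 encode calmodulin-like proteins that are induced by touch as TCH4 is. TCH2 had 36.8 TPM by RNA-seq and 97.1 TPM by footprints (log2 ratio 1.40, 1.27 to 1.53), and TCH3 had 97.0 and 192 TPM (0.98, 0.93 to 1.04). At 0.53, XTH22 (TCH4) lay below both with no overlap of the intervals. TCH2 and TCH3 were not placed among genes of like coding length or like RNA level, and no further touch genes were looked up.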

How the data were processed

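RNA-seq and Ribo-seq were measured in 6 libraries each. Tools in the submitters' processing notes are Bowtie2 2.3.4.1, STAR and RSEM 1.3.1, without role or order. For either assay the authors deposited a single RSEM table of expected counts (estimated, not normalized), TPM and FPKM, over effective coding length. Not given in the sources used here were the way libraries were combined and the annotation. Expected counts and TPM were used, FPKM was not. Of 18972 nuclear genes with 1 coding length in TAIR10.1 (RefSeq), 18971 had that length in the tables, and coordinates, names and sequences are from TAIR10.1.

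The ratio used a pseudocount of 0.1 and genes with RNA-seq TPM over 0.1. Intervals of levels are exact Poisson 95% bounds. Intervals of ratios combine the opposite 95% bounds of both counts and are wider than 95% intervals. The ratio was tested on simulated data. The members and lists were chosen with earlier results of these data known. All members were named, with up to 3 most abundant other genes per family and all genes of the xyloglucan and touch lists. Families were taken from reference symbols and synonyms. Proteins were aligned globally with BLOSUM62 (end gaps free). The description by like RNA-seq level, the single length for both assays and the difference of medians were added after seeing the data. Python 3.11.15, numpy 2.4.6, pandas 2.3.3, scipy 1.17.1, Biopython 1.88 and matplotlib 3.10.9 were used.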

Additional observations from a re-analysis of the deposited data

How the results depend on the processing

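No paired analysis was possible because each assay has 1 pooled value per gene, and for the same reason no library could be left out. The difference between the medians of the member XTHs and member expansins stayed between 0.68 and 0.75 on the log2 scale under all 6 alternatives to the ratio. Under these the lowest member XTH stayed above the highest member expansin, by 0.11 (CPM) to 0.19 (pseudocount 1). Of the 10 members, 6 lay above the nuclear median under every alternative to TPM and to the background. Taking TPM over nuclear genes only shifts every ratio by nearly the same amount, so it could hardly change the differences or this count. The other pseudocounts are small beside the levels of the members and could hardly move the differences. CPM, counts per whole coding length and 1 length for both assays could move them. The level of the ratio itself moves with the scaling. Leaving plastid and mitochondrial genes out of TPM moved the nuclear median from 0.12 to -0.32, by construction. The XTH median was then 0.31, and it was 0.58 with counts per whole coding length and 0.68 with 1 length for both assays. The expansin median, close to 0, turned to -0.44, -0.12 and -0.048 under these 3. With nuclear genes only, EXPA4 turned to -0.28, EXPA8 to -0.088 and EXPA11 to -0.40. EXPA11 also turned to -0.084 with counts per whole coding length and to -0.12 with 1 length. In CPM, EXPA1 turned to 0.083, EXPA5 to 0.13 and EXPA10 to 0.017. Relative to the nuclear median of each scaling, the expansin median lay between -0.17 and -0.063 and the XTH median between 0.56 and 0.67. Of the values for single genes and other descriptions, 72 counted as unchanged, 36 moved with no change of sign and 8 changed sign. A single-gene ratio that counted as unchanged lay within its counting interval, and no spread between replicates entered. A shared 24-mer was found in 4.09% of EXPA10. Without separate libraries, depth limits only the counting error, which is widest in EXPA8 with 600 RNA-seq counts.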
